A study of Mus musculus with 4 samples.

Results

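The GDNF family comprises small secreted ligands and the receptors that bind them on the cell surface. Of its genes, 10 are described here across all libraries of the study: the shared receptor Ret, the co-receptors Gfra1, Gfra2, Gfra3, Gfra4 and Gfral, the alternative GDNF receptor Ncam1, and the ligands Gdnf, Nrtn and Artn. They were picked by symbol from the 31053 gene identifiers of the count tables, each symbol matched 1 identifier, and all 10 were looked up in all 22 libraries. Transcript ends were sequenced from small-intestinal crypt cells of male mice that carry EGFP at the Ret locus (RetEGFP/+ per the study's methods, although the sample labels give the genotype as WT). Cells were sorted into 5 Ret-EGFP+ and 5 non-EGFP libraries of 1000 cells each from 3 mice, with the gate set on a littermate control. Organoids were grown from wild-type C57BL/6J crypts, noted as proximal in the sample sheet, and kept in ENR medium alone (6 control libraries) or with recombinant GDNF and GFRA1 at 500 ng/mL each (6 GDNF libraries). Treatment lasted 4 days, in 3 experiments with 2 libraries of each kind, of which experiments 1 and 2 came from female mice and experiment 3 from a male mouse. Mice used for primary cells were adults of varied age, and the age behind each library is not given in the sources used here.

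RET is a receptor tyrosine kinase that does not bind its ligands by itself. Each ligand prefers a lipid-anchored co-receptor: GDNF binds GFRA1, neurturin (encoded by Nrtn) GFRA2, artemin (encoded by Artn) GFRA3 and persephin GFRA4, and the complex then brings RET molecules together. GFRAL is the brainstem receptor of GDF15, and NCAM1 can carry GDNF signals without RET. In the gut the pathway is best known from the enteric nervous system, whose precursors depend on Ret, and outside it RET is known from neuroendocrine cells such as those of the thyroid and adrenal medulla.

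Upstream sequence is shown for members that passed the test threshold between the sorted populations and had an entry in the RefSeq promoter table (GRCm38.p6). Control elements of a gene are often found in this stretch. For Gfra1 and Gfra4 the difference rested on few counts and is not settled. Of the 10 members, 6 had an entry, and Ret, Gfra2, Gfra3 and Ncam1 had none. Each line gives the 250 bases before the RefSeq start, 5′ to 3′ on the strand of the gene. Capitals mark CANNTG, the core (E-box) bound by basic helix-loop-helix factors such as NEUROD1. For Gfra1 the stretch lies inside the GENCODE M21 gene span given below, whose start is farther upstream. Gfra1 lies on the minus strand (chr19:58455399-58455648), Gfra4 on the minus strand (chr2:131043089-131043338, the more upstream of 2 entries) and Nrtn on the minus strand (chr17:56757549-56757798).
Gfra1: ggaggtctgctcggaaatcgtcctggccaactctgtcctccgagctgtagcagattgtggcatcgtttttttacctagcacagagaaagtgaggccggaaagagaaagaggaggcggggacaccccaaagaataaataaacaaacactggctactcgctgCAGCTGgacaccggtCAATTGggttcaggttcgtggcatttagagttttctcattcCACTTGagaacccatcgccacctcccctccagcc
Gfra4: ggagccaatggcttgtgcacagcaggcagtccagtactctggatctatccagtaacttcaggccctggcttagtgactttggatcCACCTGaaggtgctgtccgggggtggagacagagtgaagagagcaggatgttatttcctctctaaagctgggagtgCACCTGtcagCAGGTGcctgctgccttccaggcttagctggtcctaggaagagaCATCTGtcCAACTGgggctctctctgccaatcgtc
Nrtn: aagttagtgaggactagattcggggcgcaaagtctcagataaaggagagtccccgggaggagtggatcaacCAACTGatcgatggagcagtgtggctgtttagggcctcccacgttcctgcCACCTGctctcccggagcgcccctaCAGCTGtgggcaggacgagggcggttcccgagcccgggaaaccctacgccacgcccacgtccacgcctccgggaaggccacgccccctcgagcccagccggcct

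Read on both strands, CANNTG occurred 3 times before Gfra1, 5 times before Gfra4 and 3 times before Nrtn, and the other Gfra4 entry (chr2:131042683-131042932) held 2. At least 1 match was found in 66.2% of the 32851 promoters of this length in the table, and 1.15% held at least 5. The form CAGATG, or CATCTG on the other strand, was found once, before Gfra4 in the entry shown and not in the other, and is present in 14.4% of promoters. The GC box GGGCGG, or CCGCCC on the other strand, was found once, before Nrtn, against 32.7% of promoters. The stretch before Nrtn was 64.8% G or C, that before Gfra4 55.2% and that before Gfra1 52.4%, with a median of 52.4% over the table. These matches describe letters in a window and were not tested for binding.

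Total counts were 1113006 to 4717549 per sorted library and 1042028 to 2010359 per organoid library. No pair of replicates agreed within sampling noise (chi-square over degrees of freedom 1.82 to 60.8), so none was counted as a duplicate. The mouse behind each sorted library is not in the sample sheet, so libraries of the same mouse entered as separate replicates and p-values for sorted cells may be too small. Levels are CPM, counts scaled by library size and TMM factor, and each tag stands for 1 transcript end, so genes were compared without dividing by length. The genes lie in GRCm38 (GENCODE M21) at chr6:118151745-118197718 for Ret, chr18:34689898-34720387 for Gfra3, chr19:58235604-58455909 for Gfra1, chr2:131039632-131043088 for Gfra4 and chr17:56751325-56757530 for Nrtn, all on the minus strand. Isoforms were not resolved and the strand setting is not given in the sources used here, and the antisense genes that overlap Gfra1 and Ncam1 had 0 counts in all libraries. Enteroendocrine identity was checked with 15 general markers, whose summed transcripts made up 3.28% of Ret-EGFP+, 0.269% of non-EGFP and 0.0515% of control organoid levels.

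Ret itself was abundant in Ret-EGFP+ cells and close to 0 in non-EGFP cells. The 5 Ret-EGFP+ libraries were at 34.3, 32.7, 15.3, 24.1 and 49.1 CPM, and the 5 non-EGFP libraries at 0, 0.727, 0.588, 2.27 and 1.42 CPM. The groups did not overlap. The log2 fold change was 5.17 (SE 0.63, adjusted p = 3.77e-07 from edgeR's quasi-likelihood test). Because EGFP from the Ret locus was the sorting signal, the direction checks the sort and is not a finding. Over the group, non-EGFP cells held 10 Ret counts, a mean level 3.22% of that in Ret-EGFP+ cells.

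Gfra3, the artemin co-receptor, was the most abundant member in Ret-EGFP+ cells and was higher there than in non-EGFP cells. It stood at 209.3, 145.0, 146.8, 185.2 and 176.8 CPM in Ret-EGFP+ and at 11.8, 6.91, 15.9, 10.2 and 9.06 CPM in non-EGFP libraries. The lowest Ret-EGFP+ library was thus above the highest non-EGFP library. The means were 172.6 ± 27.2 and 10.8 ± 3.36 CPM (SD, n = 5 each), a log2 fold change of 4.01 (SE 0.27, adjusted p = 8.46e-12 from edgeR). Among Ret-EGFP+ libraries its coefficient of variation was 0.157, against 0.405 for Ret. Ret and Gfra3 were the members whose sorted groups did not overlap, as was the case for 23.1% of the 13672 genes tested.

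Gfra1, the co-receptor of GDNF, was low and was called higher in Ret-EGFP+ cells, but the call was fragile. Its counts were 19, 3, 8, 1 and 12 in Ret-EGFP+ and 1, 0, 1, 0 and 5 in non-EGFP libraries, or 3.23 ± 2.19 against 0.448 ± 0.592 CPM (SD, n = 5 each). The groups overlapped, since Ret-EGFP+ library 4 (0.588 CPM) lay below non-EGFP library 5 (1.42 CPM). The log2 fold change was 2.61 (SE 1.21, adjusted p = 0.0946 from edgeR), just inside the study's threshold of 0.1. DESeq2 called 4 of the 5 tested members, Gfra1 among them. With total counts edgeR also called it (adjusted p = 0.0413), and without a filter on low counts it did not (adjusted p = 0.116). The call was lost without any of 7 of the 10 libraries (Ret-EGFP+ 1, 3 and 5 and non-EGFP 1 to 4), with log2 fold changes of 2.22 to 3.65 and adjusted p-values of 0.0617 to 0.24 over all 10 omissions. Pooled over libraries, the ratio of rates was 6.78 (95% exact counting interval 3.02 to 17.9, counting error only).

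Gfra4, the persephin co-receptor, was found in Ret-EGFP+ libraries 2 and 4 with 4 and 6 counts, and had 0 counts in the other 3 Ret-EGFP+ and in all 5 non-EGFP libraries. Against a floor of 3 counts over the non-EGFP group, the pooled rate in Ret-EGFP+ cells was 3.68-fold higher. The exact counting interval of the ratio to non-EGFP cells starts at 2.47, with counting error only. The gene was called by edgeR (adjusted p = 0.0699). This call rested on 10 counts in 2 libraries from plate 3, and DESeq2 gave an adjusted p of 0.244. It was also lost without Ret-EGFP+ library 2 or non-EGFP library 1, 2 or 5 (adjusted p from edgeR 0.118, 0.116, 0.105 and 0.12). Without Ret-EGFP+ library 4 the gene fell under the filter on low counts. All of its counts in sorted cells were in the Ret-EGFP+ group, so it passed this filter through that group alone. The p-value from edgeR therefore cannot decide whether Gfra4 differed between the populations, and the counts are given as a description.

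Nrtn, which encodes neurturin, was the only one of the 3 member ligands with counts in sorted cells and went the other way. It was at 11.2, 8.02, 4.78, 7.64 and 18.6 CPM in Ret-EGFP+ and at 29.2, 13.1, 7.05, 35.2 and 54.1 CPM in non-EGFP libraries. Non-EGFP library 3 lay within the range of Ret-EGFP+ cells, so the groups overlapped. The log2 fold change was −1.43 (SE 0.49, adjusted p = 0.0257 from edgeR). With total counts in place of TMM, a scaling that moved the median of all genes from 0.10 to 0.68, it was −0.94 (adjusted p = 0.136), and without non-EGFP library 5 it was −1.03 (adjusted p = 0.143), so the call depends on both. Transcripts of 6 Paneth cell markers took 38.0% of the non-EGFP level and 0.596% of the Ret-EGFP+ level. Whether this difference in composition bears on the Nrtn value was not tested.

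**Figure D1:**
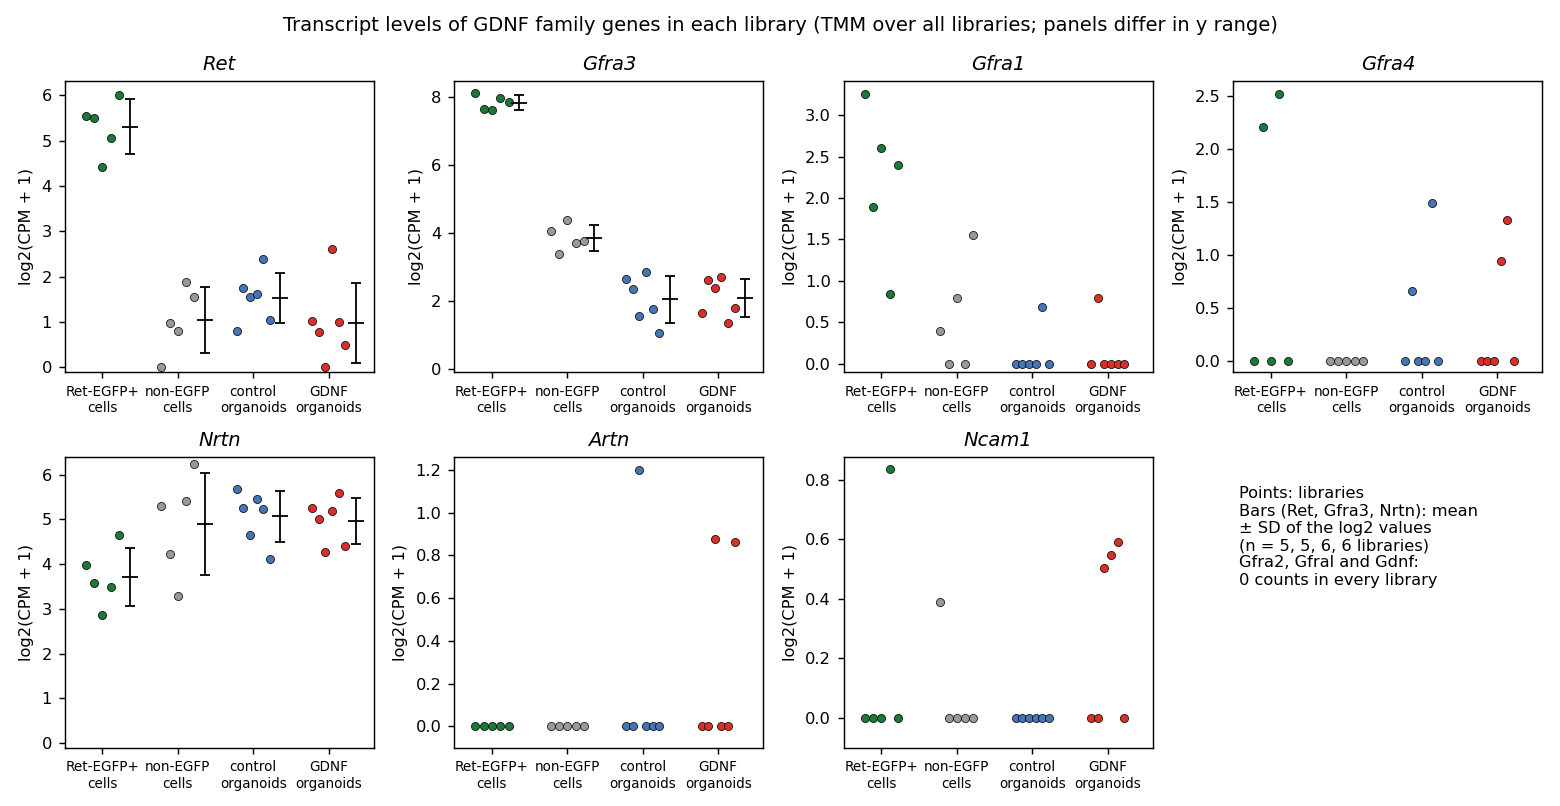
Levels of 7 members as log2(CPM + 1), scaled over all 22 libraries, in 5 Ret-EGFP+, 5 non-EGFP, 6 control and 6 GDNF libraries; points are libraries, and bars for Ret, Gfra3 and Nrtn give mean ± SD of the log2 values. Ret and Gfra3 separate the sorted groups, Gfra1, Gfra4, Artn and Ncam1 lie near 0 in most libraries, and Nrtn has counts in every library.

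The remaining members were at or near 0 in sorted cells. Gfra2, the neurturin co-receptor, Gfral, Gdnf and Artn had 0 counts in all 10 libraries, which allows up to 0.253 CPM over the Ret-EGFP+ and 0.229 CPM over the non-EGFP group (3 counts each). Ncam1 had 1 count in either group, and their ratio of 1.1 has an exact 95% counting interval of 0.0141 to 86.6. In all, 5 of 10 members passed the filter on low counts and 5 were called (4 higher and 1 lower with EGFP), where 42.8% of all tested genes were called (2938 up and 2920 down). Those that passed include genes that did so through 1 group, Gfra4 among them, so the share called is no evidence about the family. Without plate 4, with plate as a block or with adjacent wells as a block, 3 of the members were called, and Gfra1 and Gfra4 were not.

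Cells of other kinds that use the pathway were checked through their markers. Mesenchymal cells are known to make GDNF in the gut, and their 11 markers had 3 counts in total in the Ret-EGFP+ group and 0 in the non-EGFP group. Of 6 glial genes, Sox10 was at 0 in every group, and of 7 neuronal genes Phox2a, Nos1 and Vip were at 0 in every group, with summed levels of 2.36 to 17.9 CPM in Ret-EGFP+ and 2.79 to 15.4 CPM in non-EGFP libraries. The 12 lymphoid genes summed to 18.1 to 82.6 CPM in Ret-EGFP+ and 94.6 to 458.1 CPM in non-EGFP libraries, with Il22 at 0 in both. Of the 11 tested, 6 were lower in Ret-EGFP+ cells, among them the abundant Gzma (−4.17, SE 0.80, adjusted p = 2.17e-04), and 2 were higher, Il7r (4.59, SE 1.66, adjusted p = 0.0355) and Thy1 (adjusted p = 0.0813, 0 counts in non-EGFP cells), all from edgeR. Their part in the Nrtn level of non-EGFP cells was not tested. Tuft cell markers, at 444.1 to 1339 CPM without EGFP and 4.43 to 13.5 CPM with it, moved the same way as Nrtn. So did all 6 Paneth, 7 goblet and 6 stem cell markers and 6 of 8 enterocyte markers (1 was higher). Beside these counts and that of the lymphoid genes, 42.8% of all tested genes were called. The part of these cell types in the Nrtn level was not tested either.

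Genes that act with the family were read from lists of its other ligands and receptors, of RET adaptors and of transcription factors. Of 12 other ligands, receptors and handling genes, 7 were tested and 3 of them (each towards Ret-EGFP+ cells) passed, a share like the 42.8% of all genes. These were Gdf15, the ligand of GFRAL (log2 fold change 2.61, SE 0.66), Itgb1, an integrin subunit (0.97, SE 0.26), and Fyn, a Src-family kinase used by NCAM1 (1.71, SE 0.66), with adjusted p = 0.00352, 0.00523 and 0.0478. Sort1 and Sorl1, sorting receptors, did not pass at 0.16 and 0.33 (SE 0.33 and 0.38), and Pspn, the ligand persephin, had 0 counts in all libraries. The median log2 fold change of the list was 0.77, beside 0.10 over all genes tested.

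Of 24 adaptors and regulators of RET, 20 were tested and 8 of them (each towards Ret-EGFP+ cells) passed, again near the 42.8% of all genes. The smallest p-values belonged to Grb2, the adaptor towards Ras (1.31, SE 0.36, adjusted p = 0.00702), Pdlim7, a scaffold that binds the RET tail (2.49, SE 0.72, adjusted p = 0.00968), Irs2, a docking protein (1.98, SE 0.61, adjusted p = 0.0144), and Cbl, a ubiquitin ligase (1.57, SE 0.49, adjusted p = 0.0158). The abundant Ptpn11 and Grb7 did not pass, at −0.07 (SE 0.30) and 0.32 (SE 0.39). The list median was 0.52. Of 10 transcription factors tied to Ret in nervous system and kidney, 3 were tested, and Hoxb5 (4.43, SE 1.42, adjusted p = 0.0182) and Etv5 (2.39, SE 1.05, adjusted p = 0.0807) were higher while Rara was at −1.24 (SE 1.14, adjusted p = 0.43). Sox10, Pax3, Gata3, Nkx2-1 and Pax2 had 0 counts in sorted cells. All of these p-values are from edgeR.

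In a ranking of genes by their likeness to each member over the 10 sorted libraries, the top genes for Gfra3 were the endocrine transcription factors Isl1 and Neurod1. Pearson correlations of log2(CPM + 1), among 9312 genes that averaged 10 or more counts, were 0.998 with Isl1, 0.994 with Neurod1, 0.992 with Fxyd3, 0.992 with Slc25a4 and 0.991 with Scg5. For Ret the closest genes were Ppic (0.989), Scn3b (0.985), Scrn1 (0.985), Gm15200 (0.985) and Lynx1 (0.983). For Nrtn they were Tra2b (0.960), Rnaseh2a (0.960), A930001M01Rik (0.936), Papola (0.928) and Notch2 (0.903). All points share the 2 sorted groups, so any gene with a large group difference correlates highly, and these values are a description.

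In organoids 3 of the 10 members passed the filter, and none was called between GDNF and control (0 by edgeR, 0 at an unadjusted p under 0.05, and 0 of the 2 that received an adjusted p from DESeq2), beside 0.679% of 12222 tested genes. Recombinant GDNF and GFRA1 protein add no RNA to these levels. Gdnf, Gfra2 and Gfral had 0 counts in all 12 libraries, which allows up to 0.358 CPM over the control and 0.303 CPM over the GDNF group. The groups overlapped for all 3 tested members, and 0.262% of all tested genes had groups without overlap.

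Ret was near the limit of detection, with 22 counts over the control and 17 over the GDNF libraries. Control libraries lay between 0.958 and 5.35 CPM (median 2.52) and GDNF libraries between 0 and 6.34 CPM (median 1.09), so the groups overlapped. The log2 fold change was −0.63 (SE 0.61, 95% interval −1.86 to 0.60, adjusted p = 0.932 from edgeR). By experiment the mean was 1.75 CPM in control and 3.81 CPM in GDNF libraries in experiment 1, 4.16 and 1.09 CPM in experiment 2, and 1.91 and 0.252 CPM in experiment 3. In experiments 2 and 3 the GDNF libraries lay below the controls, and in experiment 1 they did not. GDNF library 4, from experiment 1, held 11 of the 17 GDNF counts, and without it the log2 fold change was −1.68 (adjusted p = 0.634). The interaction of treatment and experiment in edgeR had an adjusted p = 0.962 for Ret (unadjusted 0.0548), 0.99 for Gfra3 and 0.99 for Nrtn. It was called for 0 of the 3 members and for 0.0409% of genes.

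Gfra3 was at 4.40 ± 2.50 CPM in control and 4.33 ± 2.13 CPM in GDNF organoids (SD, n = 6 each). Control libraries ranged from 1.32 to 7.62 CPM (median 4.13) and GDNF libraries from 1.88 to 6.92 CPM (median 4.09). Its log2 fold change of 0.00 had a 95% interval of −0.65 to 0.65 (adjusted p = 1.00 from edgeR), and smaller changes were not detectable at this depth. Nrtn was the most abundant member in organoids, at 43.5 ± 15.6 CPM in control and 39.1 ± 13.5 CPM in GDNF libraries (SD, n = 6 each), and its range was 20.4 to 64.2 and 22.7 to 58.3 CPM. Its log2 fold change was −0.13 (SE 0.14, 95% interval −0.42 to 0.16, adjusted p = 0.947 from edgeR).

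Nrtn was lower in experiment 3 than in the others in either treatment. It lay between 20.4 and 30.9 CPM in the 4 libraries of experiment 3 and between 39.5 and 64.2 CPM in the 8 libraries of experiments 1 and 2. The few Artn counts all fell in experiment 3, with 2 in each of control library 3 and GDNF libraries 3 and 6. Experiment 3 is the single one from a male mouse, so sex, mouse and experiment cannot be told apart, and no test was run.

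**Figure D2:**
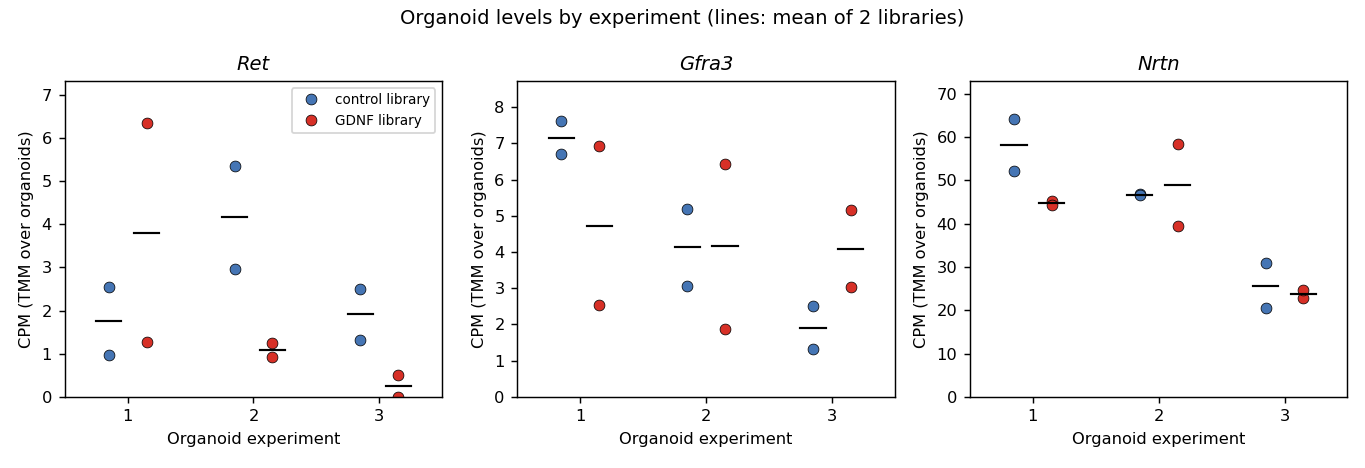
Levels of Ret, Gfra3 and Nrtn in CPM, scaled over the 12 organoid libraries, by experiment; points are libraries and lines are means of 2 libraries. Nrtn lies at 20.4 to 30.9 CPM in experiment 3 in either treatment, and the highest Ret point is GDNF library 4 at 6.34 CPM.

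The other members had few counts in organoids. Gfra1 had 1 count in control library 5 and 1 in GDNF library 2, both of experiment 2, and 0 in the other 10. Gfra4 had 1 and 3 counts in control libraries 2 and 5 and 2 and 3 counts in GDNF libraries 4 and 5. Ncam1 had 0 counts in control libraries and 1 in each of GDNF libraries 3, 4 and 5, 1 per experiment, and the 95% counting interval of the ratio to control starts at 0.35. Among the other genes of the pathway none was called with GDNF: 0 of 7 other ligands and receptors, 0 of 19 adaptors and 0 of 3 transcription factors. Of these, 0 were at an unadjusted p under 0.05 and 0 were called by DESeq2. Over all 12222 tested genes 0.679% were called and 845 were at an unadjusted p under 0.05 from edgeR. With so small a share, 0 called among these few genes is no finding about the pathway. Itgb1 and Sort1 were at log2 fold changes of 0.01 (SE 0.10) and 0.21 (SE 0.13), Ptprf, a receptor phosphatase, and Ptpn11 at −0.14 (SE 0.10) and −0.02 (SE 0.10), and Etv4 and Rara at 0.35 (SE 0.28) and 0.27 (SE 0.26).

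Over the organoid libraries, after subtraction of experiment means, Nrtn varied most alike with Ercc6l (Pearson correlation 0.867), Mvb12a (0.851), Elmo2 (0.845), Vma21 (0.845) and Abhd12 (0.842), among 8936 genes and 12 libraries. Treatment is shared among these points too. Other members were too low for this ranking.

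To see the members beside enteroendocrine markers, they were also set against the summed counts of the 15 enteroendocrine genes. By group mean this sum made up 0.0595% of GDNF and 0.0515% of control organoid levels, and a higher sum lowers the ratio of every member. As log2 ratios with 0.5 added to each count, Ret was at −7.91 ± 0.86 in control and −9.16 ± 1.63 in GDNF organoids (SD, n = 6 each), a difference of −1.25 (exact two-sided permutation test within experiments, p = 0.12). Gfra3 differed by −0.17 (p = 0.685) and Nrtn by −0.33 (p = 0.0556, same exact permutation test). The 216 arrangements could give a p as small as 0.00926. None of these 3 members passed 0.05. Of 14 enteroendocrine genes tested alone 0 were called with GDNF, beside 0.679% of all tested genes (2 at an unadjusted p under 0.05, 0 by DESeq2). Those 2 went opposite ways, with Chga at a log2 fold change of −0.34 (SE 0.12) and Chgb at 0.26 (SE 0.09). These general markers include no hormone gene and not Tph1. For the same organoids the study reported higher Tac1, Tph1, Pyy and Cck and an enriched enteroendocrine signature with GDNF, which were not examined here.

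Levels were then compared between sorted cells and organoids in a fit over all 22 libraries. These sources differ in mouse genotype, sex (male for sorted cells, mostly female for organoids), culture, RNA input, sequencing pool and count table, which cannot be told apart. In bulk libraries fewer cells of a type and less RNA per cell cannot be told apart either. On the common scale Ret was at 41.1 ± 16.1 CPM in Ret-EGFP+ cells, 1.26 ± 1.05 in non-EGFP cells (SD, n = 5 each), 2.07 ± 1.22 in control and 1.38 ± 1.85 in GDNF organoids (SD, n = 6 each). The order was thus Ret-EGFP+ cells, control organoids, GDNF organoids and non-EGFP cells, and the last 3 overlapped in range. Control organoids were below Ret-EGFP+ cells by a log2 fold change of −4.36 (SE 0.55, adjusted p = 4.76e-08 from edgeR) and at 0.84 (SE 0.74, adjusted p = 0.374) against non-EGFP cells. With total counts in place of TMM, which moved the median of all genes in that comparison from −0.01 to 0.94, the latter became 1.76 and was called (adjusted p = 0.0404).

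Gfra3 was at 228.6 ± 34.5 CPM in Ret-EGFP+ cells and 13.8 ± 4.00 in non-EGFP cells, against 3.5 ± 2.02 in control and 3.48 ± 1.68 in GDNF organoids on the same scale. On this scale both sorted groups lay above the 12 organoid libraries, whose highest was 6.23 CPM. With total counts alone non-EGFP library 2 (5.76 CPM) lay below control library 4 (7.56 CPM). Control organoids differed from Ret-EGFP+ cells by −6.07 (SE 0.29, adjusted p = 5.85e-18) and from non-EGFP cells by −2.02 (SE 0.32, adjusted p = 4.12e-06, both edgeR). With total counts the latter was −1.06 and still called (adjusted p = 0.00662). The 15 enteroendocrine genes went along, with 14 called lower in control organoids than in non-EGFP cells and a median log2 fold change of −2.89, beside −0.01 over all genes.

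Gfra1 was lower in control organoids, with 1 count, than in Ret-EGFP+ cells with 43 (ratio of rates 50.3 in favour of the sorted cells, exact 95% counting interval 8.56 to 2030, adjusted p = 5.91e-04 from edgeR). Against the 7 counts of non-EGFP cells its log2 fold change of −2.66 (SE 1.15, adjusted p = 0.064) was called, but not without non-EGFP library 5 (−1.54, adjusted p = 0.242) or control library 2 (−2.26, adjusted p = 0.125), nor with total counts (−1.998, adjusted p = 0.13). Gfra4 was at −2.75 (SE 1.32, adjusted p = 0.0772) in control organoids against Ret-EGFP+ cells, and this call was lost without control library 1, 2, 4 or 6 (adjusted p = 0.103 to 0.145) or with total counts (adjusted p = 0.119). Its 4 counts in control organoids against 0 in non-EGFP cells gave no usable fit. Their rate was 1.26-fold higher against the floor, but the exact 95% counting interval of the ratio starts at 0.624 and so includes no difference.

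Nrtn was at 34.5 ± 12.4 CPM in control and 31.6 ± 10.9 in GDNF organoids (SD, n = 6 each), beside 36.03 ± 25.3 in cells without EGFP and 13.3 ± 6.76 in Ret-EGFP+ cells (SD, n = 5 each). Control organoids exceeded Ret-EGFP+ cells by a log2 fold change of 1.24 (SE 0.37, adjusted p = 0.00482 from edgeR), although the ranges of 16.4 to 50.1 and 6.33 to 24.1 CPM overlapped. Against non-EGFP cells it was at −0.16 (SE 0.34, 95% interval −0.86 to 0.54, adjusted p = 0.744), with the sign turning to 0.78 with total counts, where it was called (adjusted p = 0.0636), and to 0.31 without non-EGFP library 5 (adjusted p = 0.49). By group mean Nrtn led the family in control organoids, GDNF organoids and non-EGFP cells (in non-EGFP library 3 Gfra3 was higher), and in Ret-EGFP+ cells Gfra3 and Ret exceeded it in all 5 libraries.

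Against non-EGFP cells 2 of the 5 tested members were called in control organoids, and 49.8% of 13405 genes tested. Against Ret-EGFP+ cells all 5 tested members were called (4 lower and 1 higher), and 63.6% of genes. Gfra3 was the member without overlap in the first of these, beside 23.9% of genes, and Ret, Gfra1 and Gfra3 in the second, beside 38.1%. Among the other genes of the pathway, control organoids were above non-EGFP cells for Gdf15 (log2 fold change 2.57, SE 0.46, adjusted p = 3.38e-05), Itgb1 (1.09, SE 0.20, adjusted p = 3.85e-05) and Etv4 (5.41, SE 0.91, adjusted p = 1.23e-05). Met, the HGF receptor, was below (−1.15, SE 0.45, adjusted p = 0.0396), and Sort1, Sorl1, Rara and Etv5 did not pass at −0.09, 0.22, 0.80 and 0.71. Of 20 adaptors tested 7 were higher, of which the smallest p-values belonged to Irs2 (2.52, SE 0.37), Cbl (1.58, SE 0.31), Grb7 (1.21, SE 0.27) and Cblc (1.25, SE 0.28), 2 were lower, and Ptprf and Ptpn11 did not pass at 0.21 and 0.32. All are edgeR values on the TMM scale, and with total counts the median of all genes in this comparison moved up as given for Ret.

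The mesenchymal genes, at 0 to 1.81 CPM in sorted cells, reached 5.40 to 22.7 CPM in control organoids with counts for 8 of 11 genes, while Gdnf stayed at 0 there. Over all organoid libraries Acta2 alone held 153 counts, Col1a2 46 and Col1a1 20. Pdgfra had 2, Foxl1 1 and Bmp5 0. Whether the organoids held fibroblasts of the kind that makes GDNF was not tested.

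**Figure D3:**
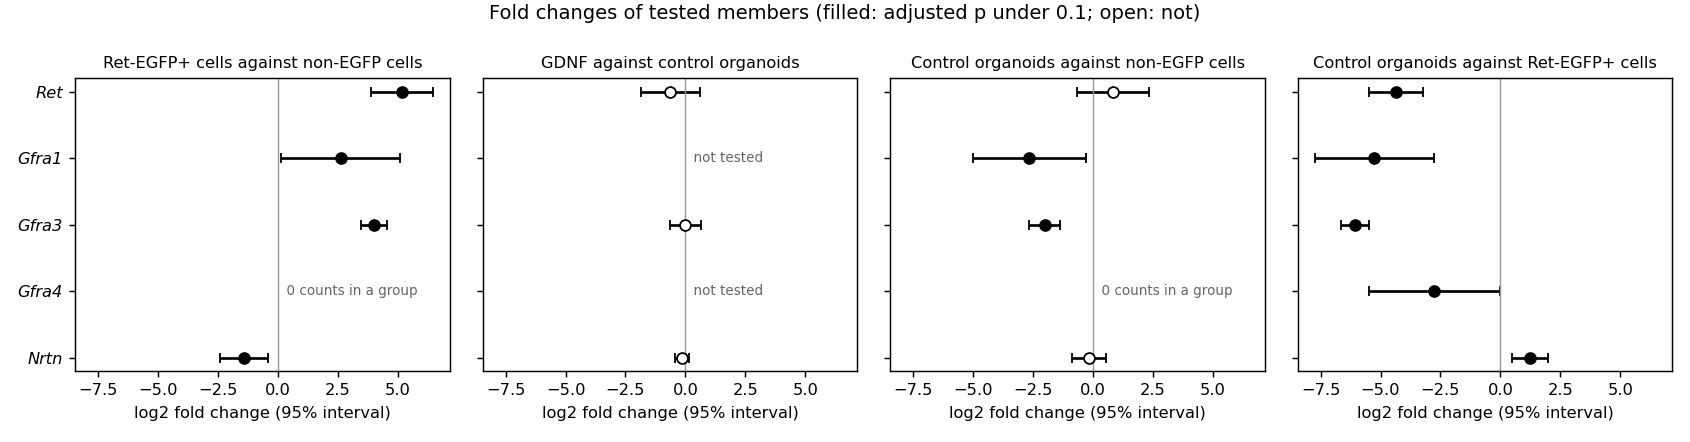
Log2 fold changes with 95% intervals of the members tested in 4 comparisons; filled points passed an adjusted p of 0.1 and open points did not. Ret and Gfra3 lie far right of 0 between sorted populations and far left of 0 between control organoids and Ret-EGFP+ cells, and none was called with GDNF.

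Relative to enteroendocrine transcripts the receptors followed different orders. Per 1000 counts of the 15 genes, Ret was at 1.57, 1.27, 0.596, 0.835 and 2.31 in Ret-EGFP+ cells, at 0, 0.203, 0.229, 2.07 and 1.25 in non-EGFP cells, and between 1.21 and 9.26 (median 4.19) in control organoids. The organoid range reached down into those of both sorted groups. The tests between sources treat libraries as independent, although sorted libraries share 3 mice and organoid libraries come in pairs per experiment, which can make p-values too low. The mean log2 ratio of Ret was 1.80 lower in Ret-EGFP+ cells than in control organoids and 3.20 higher in control organoids than in non-EGFP cells. Ret-EGFP+ and non-EGFP cells differed by 1.4, within the spread of the libraries. Both sorted groups were selected on the signal of the Ret locus. A test of these Ret ratios therefore cannot decide a difference, and they are given as a description. Pooled, Ret per enteroendocrine transcript was 2.87 times as high in control organoids as in Ret-EGFP+ cells (95% counting interval 1.78 to 4.40). The sorted cells carry EGFP at 1 Ret allele and the organoids do not, and non-EGFP cells were selected against the signal of this locus.

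Gfra3 ratios overlapped among all groups, at 7.13 ± 1.76 per 1000 enteroendocrine counts in Ret-EGFP+, 6.29 ± 2.79 in non-EGFP (SD, n = 5 each), 6.68 ± 3.57 in control and 5.91 ± 3.07 in GDNF libraries (SD, n = 6 each). Its log2 ratio was 0.11 higher in Ret-EGFP+ cells than in control organoids (exact permutation p = 0.801) and 0.18 higher in control organoids than in non-EGFP cells (exact permutation p = 0.714). Pooled, control organoids had 0.948 times the Gfra3 ratio of Ret-EGFP+ cells (95% counting interval 0.669 to 1.31) and 1.41 times that of non-EGFP cells (0.957 to 2.03). The first of these depends on the list: without the abundant granins Chga and Chgb it was −1.56 (exact permutation p = 0.0108). The difference of Ret was then −3.47, again as a description. For Nrtn the ratio was 0.430 ± 0.277 per 1000 in Ret-EGFP+ cells and 66.7 ± 20.8 in control organoids (log2 ratio difference −7.39). Most of this difference is that of the enteroendocrine sum, which the sort set, so it is given as a description.

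**Figure D4:**
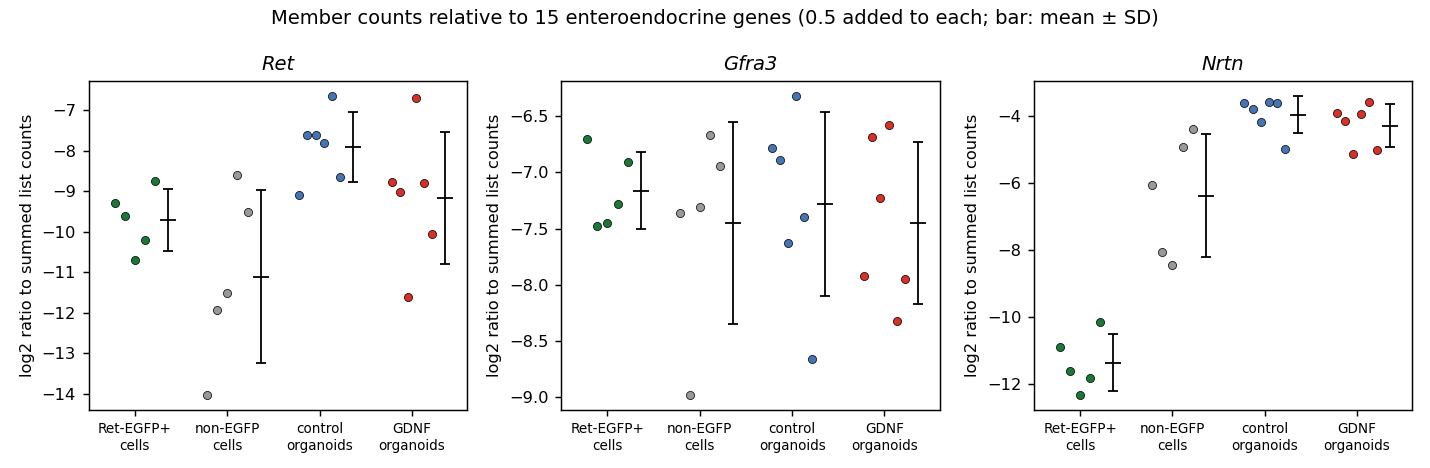
Log2 ratios of Ret, Gfra3 and Nrtn counts to the summed counts of 15 enteroendocrine genes, 0.5 added to each; points are libraries and bars are mean ± SD over 5, 5, 6 and 6 libraries. Ret has its highest mean in control organoids at −7.91, Gfra3 overlaps among all 4 groups, and Nrtn its lowest in Ret-EGFP+ cells at −11.4.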

How the data were processed

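RNA was profiled by 3′ tags in 10 sorted and 12 organoid libraries. The authors used STAR 2.7.8a for alignment (GRCm38) and BRB-seqTools for gene-level counting, and the deposited tables hold raw counts, described as molecular identifiers. For sorted cells, 32 values exceed the 65536 sequences of an 8-nucleotide identifier and are thus no distinct identifiers, so counting intervals may be too narrow there. Groups, experiments and plates came from the deposited sample sheets, and libraries are numbered in table order.

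Tests used edgeR 4.0.16 in R 4.3.3 (quasi-likelihood, TMM) on genes with 5 or more counts in total and a mean of 1 or more after normalization, called at an adjusted p under 0.1, all as in the study's filters. Organoid fits held the experiment as a block, since a number marks a shared experiment. Standard errors are the log2 fold change over the root of F. The fits were tested on simulated counts. Floors are 3 counts over a group, and intervals are exact at 95%.

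The members and gene lists were chosen with earlier results of these data known. Named are all members, up to 4 called and 2 abundant uncalled genes of each pathway list for sorted cells and for GDNF, and the 5 genes most correlated with members of at least 10 mean counts. Gene coordinates are from GENCODE M21. Alternatives were DESeq2 1.42.0, its size factors, total counts, other filters and thresholds, and omitted libraries, plates and experiments. Plate and adjacent-well blocks, omissions in the fit over all libraries, and the 9 ratio tests between sources were chosen after seeing the data. An entry for TdTomato, no mouse gene, with 10 organoid counts, was left out. Of the gene lists, 1 gene is not reported here by itself.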

Additional observations from a re-analysis of the deposited data

Results flagged for a closer look

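Of 18 sets of a member and a group examined, 2 held a library farther from the others than Dixon's 95% limit, where chance gives about 1 in 20. Ret in GDNF library 4 was at 6.34 CPM, while the other 5 GDNF libraries lay at or below 1.27 CPM. Gfra4 in control library 5 was at 2.29 CPM from 3 counts, with 4 of the other control libraries at 0.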

How the results depend on the processing

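Of 479 single values recomputed, 422 kept their direction and side of the threshold, 34 lost their call, 1 gained one and 22 reversed. For sorted cells, 3 members were called instead of 5 under edgeR's filterByExpr, at a threshold of 0.05 and without plate 4, and 3 to 4 without 1 library. For control organoids against non-EGFP cells 1 was called instead of 2 under filterByExpr, at 0.05 and without plate 4, and 1 to 2 without 1 library, and with total counts 3 were called (Ret, Gfra3 and Nrtn). Against Ret-EGFP+ cells filterByExpr gave 3 instead of 5.

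The sign of Gfra3 with GDNF turned under DESeq2 size factors and without a filter (−0.001 each), under filterByExpr (−0.01) and without experiment 3 (−0.398), and ranged from −0.192 to 0.258 without 1 library. Nrtn with GDNF was at 0.023 without experiment 1. Nrtn in control organoids against non-EGFP cells was at 0.78 with total counts and 0.314 without plate 4, and ranged from −0.401 to 0.314 without 1 library. Gfra3 per enteroendocrine transcript with GDNF was at 0.0939 without experiment 1. The same ratio in Ret-EGFP+ cells minus control organoids was −1.56 without Chga and Chgb and −0.0229 with 1 added to counts, and ranged from −0.162 to 0.306 without 1 library. In control organoids minus non-EGFP cells it ranged from −0.206 to 0.451. The main values of these results had not passed their thresholds. Of the reversed ones, Nrtn with total counts (adjusted p = 0.0636) and the ratio without Chga and Chgb (p = 0.0108 by the exact permutation test) did, and the cause was not tested.

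In organoids, no replicate block (experiment) left Gfra3 at −0.059 and the genes called at 7 instead of 83, with 0 members called either way. Genes called fell to 35 without experiment 2, 46 without experiment 3 and 53 without GDNF library 5. In sorted cells, whose numbers are an order and pair nothing, plate or adjacent wells as a replicate block gave 3 members each, without Gfra1 and Gfra4. The blocks changed no other call of a member. Ret and Gfra3 in organoids and Gfra1 and Gfra4 throughout rest on under 50 counts a group, which limits their precision.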
